A study of Mus musculus with 24 samples.

Results

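The genes described here are 53 developmental transcription factors that lie outside the Hox clusters: 7 Pax, 6 Nkx, 8 Lhx, 6 Dlx, 4 Gata, 7 Tbx and 4 Irx genes, the 3 genes Six2, Six3 and Six6, and 8 others (Otx1, Otx2, Gsx1, Gsx2, Barhl1, Barhl2, Hand1 and Hand2). They were chosen by name. A measured CpG was assigned to a gene when it lay inside the gene's span in the GENCODE M21 annotation of the mouse genome GRCm38 or within 2 kb of it. This gave 5049 of the 694379 CpGs measured. Of these, 2426 lay in a promoter, defined as within 1 kb of any annotated start site of the gene, and 2623 in the rest of the gene, called its body. No CpG belonged to 2 of the genes.

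DNA methylation was measured by reduced representation bisulfite sequencing (RRBS), which reads CpG-rich fragments of the genome after bisulfite has converted the unmethylated cytosines. The tissue was micro-dissected dentate gyrus, the part of the hippocampus that holds the granule neurons and the adult neural stem cells. All mice were female, of strain C57BL/6JRj, and kept under specific pathogen-free conditions. The young STD group was 3 months old and lived in standard cages. The aged STD group was 17 months old and also lived in standard cages. The aged ENR group was 17 months old and had spent the last 3 months in an enriched environment. Each group had 8 mice, and the same aged STD mice served in both the comparison with young STD mice (aging) and the comparison with aged ENR mice (ENR).

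Each value was the percentage of methylated reads at 1 cytosine in 1 mouse, without the number of reads behind it, so the depth of a value is unknown. The mice had values at 308751 to 608017 CpGs, and at 2267 to 4464 of those of the 53 genes. Only 74 CpGs of these genes had a value in all 24 mice. Aged STD replicate 5 stood apart, with a mean of 23.6% over the CpGs it covered against 38.2% in the next lowest aged STD mouse. Over the 8628 CpGs that every mouse covered it was again the lowest of its group, by less, at 42.4% against 45.8%. Several results below are given with and without this mouse.

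Paired-box (Pax), NK, LIM (Lhx), distal-less (Dlx), sine oculis (Six2, Six3, Six6) and Iroquois (Irx) genes encode homeodomain or paired-domain proteins, Gata genes encode zinc-finger proteins and Tbx genes encode T-box proteins. They set up organs and cell types in the embryo, and most are silent in adult neurons. Their start sites usually lie in long CpG islands that carry Polycomb marks in cells where the gene is off, and such islands are known as regions of low methylation that extend past the promoter into the gene.

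The sequences that follow show the 3 kinds of stretch found in these genes. The first is an unmethylated promoter, the second a stretch of intermediate methylation near a start site, and the third a highly methylated intron. Each is 120 bp of GRCm38, 5′ to 3′ on the strand of the gene, with the CpGs that were measured in capitals. The level of a CpG is the mean of its 3 group means.
Pax2 promoter, chr19:44755770-44755889, 9 measured CpG sites, mean level 1.87%: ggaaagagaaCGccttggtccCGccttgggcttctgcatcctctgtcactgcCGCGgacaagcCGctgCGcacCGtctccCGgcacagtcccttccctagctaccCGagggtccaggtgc
Otx2 upstream of its first start site, chr14:48674130-48674249, mean level 1.69%: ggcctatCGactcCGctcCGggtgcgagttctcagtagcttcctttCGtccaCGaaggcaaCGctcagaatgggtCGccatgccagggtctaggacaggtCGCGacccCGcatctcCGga
Otx2 near its last start site, in a coding exon, chr14:48661356-48661475, mean level 33.5%, single CpGs 5.14% to 63.8%: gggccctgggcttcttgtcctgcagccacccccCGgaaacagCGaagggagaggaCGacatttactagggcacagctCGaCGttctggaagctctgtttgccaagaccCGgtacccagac
Hand1 promoter, chr11:57833712-57833831, mean level 17.7%, single CpGs 9.36% to 33.3%: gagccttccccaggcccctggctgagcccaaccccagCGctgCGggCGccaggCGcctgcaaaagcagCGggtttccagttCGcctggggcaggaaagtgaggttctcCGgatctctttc
Pax2 intron, chr19:44785578-44785697, mean level 88.8%: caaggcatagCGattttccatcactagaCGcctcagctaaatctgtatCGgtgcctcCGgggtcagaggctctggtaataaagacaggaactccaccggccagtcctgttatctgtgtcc
Lhx4 intron, chr1:155717516-155717635, mean level 93.1%: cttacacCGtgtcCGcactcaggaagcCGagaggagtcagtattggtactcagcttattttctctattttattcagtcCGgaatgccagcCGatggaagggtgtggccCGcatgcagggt

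Promoters were low in methylation but rarely at the lowest levels. A promoter was tested when at least 5 mice of each group had 3 or more of its CpGs covered, which 51 of the 53 genes met. Dlx5 had no promoter CpG, and the 7 promoter CpGs of Pax8 were covered in too few mice. The median level of the 51 tested promoters was 3.90%, with quartiles of 3.05% and 5.38%, against a median of 2.53% over the tested promoters of all genes. Of the 51, 44 (86.3%) lay between 2% and 10%, where 33.4% of all promoters lay. Just 3 (5.88%) were under 2%, where 41.2% of all promoters were, and 0 were over 50%, where 8.41% of all were. Hox promoters had a median of 3.69%, with 86.1% of 36 between 2% and 10%. Relatives of these families outside the list, such as Pax6, Isl1 and Tbr1, had a median of 2.95% over 25 tested promoters. Transcription factors that forebrain and granule neurons use, such as Prox1 and Neurod1, had a median of 2.08% over 10.

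The bodies differed more from those of other genes. A body was tested in 49 genes. Irx2 had no body CpG, and the bodies of Lhx3 (2 CpGs), Tbx20 (2 CpGs) and Gsx2 (9 CpGs) were covered too sparsely. The median body level was 8.35%, with quartiles of 5.38% and 13.8%, against 58.8% for the bodies of all genes. Of the 49, 31 (63.3%) were under 10%, where 17.6% of all bodies were, and 2 (4.08%) were over 50%, where 56.3% of all were. The median was 4.25% for 33 Hox bodies, 5.88% for 23 relatives outside the list and 10.02% for 11 forebrain and granule neuron factors. These differences in level between gene lists are descriptions, for which no test was run.

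**Figure D1:**
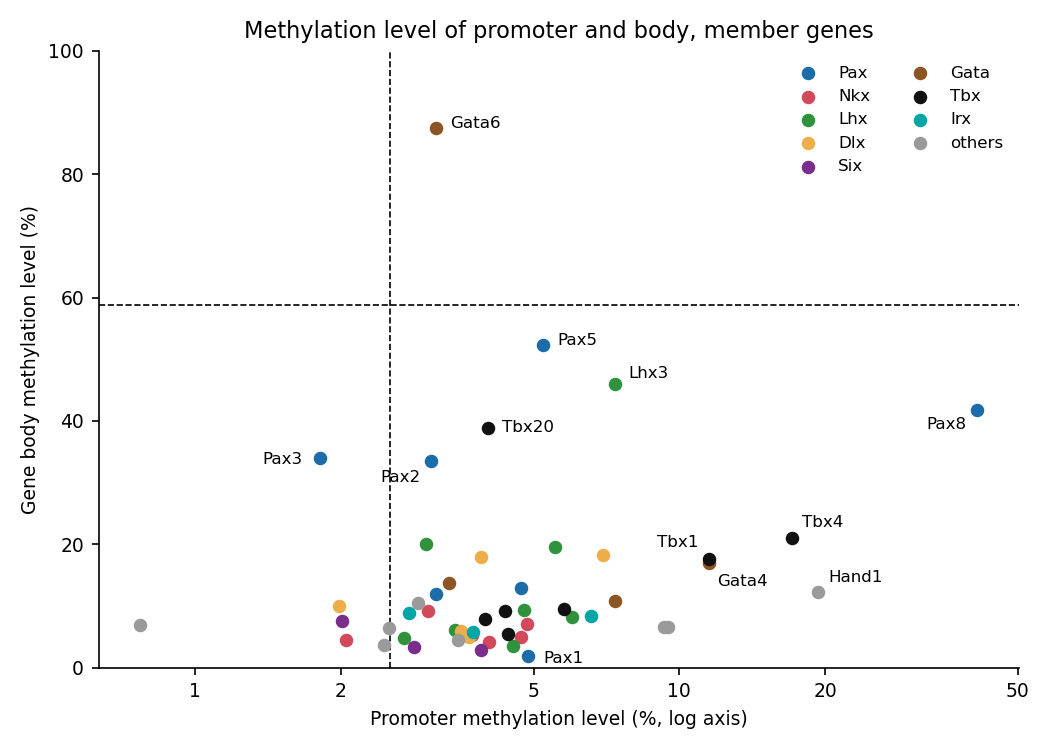
Methylation level of the promoter (x axis, percent, log scale) against that of the body (y axis, percent) for the genes that had CpGs in both, coloured by family. Dashed lines mark the medians of all genes, 2.53% for promoters and 58.8% for bodies. Most points lie to the right of the first line and all but Gata6 lie under the second.

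Low methylation reached further from the start site than in other genes. Within 250 bp of a start site the median over 49 genes was 2.98%, against 1.81% for other protein-coding genes. At 500 to 1000 bp it was 4.83% against 6.44%. Beyond that the curves parted. At 1 to 2 kb the median was 6.88% against 49.8%, at 2 to 5 kb 6.88% against 75.3%, and at 5 to 10 kb 6.71% (25 genes) against 80.5%. Farther out the median was higher in these genes too, with 65.0% at 10 to 20 kb (14 genes) against 80.6%, and 50.6% beyond 20 kb (8 genes) against 77.7%. At 10 to 20 kb 44.8% of their 96 CpGs were still under 10%, against 21.9% in other genes. Beyond 20 kb these shares were 23.0% and 18.8%. At 2 to 5 kb, 79.2% of CpGs in these genes were under 10%, against 34.4% in other genes.

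**Figure D2:**
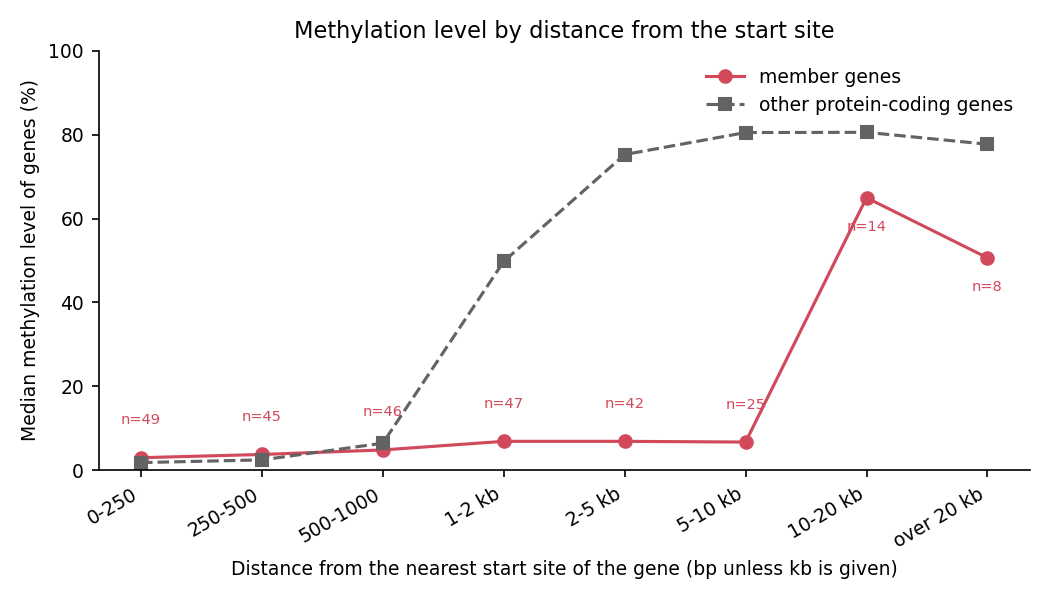
Median methylation level of genes (y axis, percent) in bins of distance from the nearest start site of the gene (x axis), for the developmental factors (red, with the number of genes in each bin) and other protein-coding genes (grey). Other genes climb to 49.8% at 1 to 2 kb, whereas the developmental factors stay at 6.71% to 6.88% out to 10 kb.

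The low level held in every part of the body. Coding exons had a mean level of 7.02% over 448 CpGs, against 57.9% in other genes. Introns had 15.9% over 1509 CpGs, against 56.0%, and exons that do not code had 10.2% over 211 CpGs, against 47.6%. The flank upstream was at 9.01% against 24.96%, and the flank downstream at 7.68% against 22.3%. The body CpGs also stood in CpG-richer sequence, with a median of 10 CG dinucleotides within 100 bp against 5 in other bodies. In this count and in the body levels by density, CpGs within 1 kb of any gene's start site were left out of the other bodies. Those of the 53 genes kept CpGs near the start sites of neighbouring genes, so the sets are unlike. The gap by density was as follows. Body CpGs with 4 to 7 neighbouring CGs had a mean level of 21.5% (687 CpGs), against 63.9% in other genes, and those with 12 to 15 had 5.24% (495 CpGs) against 37.0%. At 20 or more the gap was small, at 3.09% against 7.32%. Promoter CpGs stood in somewhat sparser sequence than those of other genes, with a median of 13 CGs against 16. Where promoters were sparse the gap was wide, with 20.3% (37 CpGs) against 53.5% at 1 to 3 CGs, 9.23% (233 CpGs) against 33.1% at 4 to 7 and 4.93% (634 CpGs) against 14.9% at 8 to 11. In denser promoters the levels were close, with 4.92% against 5.79% at 12 to 15 and 2.33% against 2.24% at 20 or more.

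RefSeq promoter windows, which run from 250 bases before to 50 after a start site of the gene, were matched for 37 of the 53 genes. A gene with several windows was taken at the highest ratio among them, and the 37 genes had 49 windows and the 27025 genes 32851. The ratio of observed to expected CpG taken so had a median of 0.745, against 0.415 over 27025 genes. It was above 0.6 in 27 of the 37 (73.0%) and in 38.3% of all genes. Lhx8 (0.24), Lhx9 (0.26), Pax8 (0.29), the factor that specifies the thyroid, and Tbx4 (0.31), which acts in the hindlimb, were the lowest.

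Families differed in how far the body was methylated. The mean body level over the CpGs of a family was 26.8% for Pax, 16.3% for Gata, 11.1% for Lhx, 10.6% for Tbx, 9.53% for Dlx, 7.73% for Irx, 7.43% for the others, 6.69% for Nkx and 5.48% for Six2, Six3 and Six6 together. With each gene counted once, the Gata body was at 30.9% in young STD mice and the Pax body at 27.4%, so the order of these families turned. The 8 body CpGs of Gata6 then make up 1 gene of 4. Promoter levels spanned a narrower range. Tbx was the highest at 7.46%, followed by the others at 5.95%, Gata at 5.29%, Pax at 4.58%, Lhx at 4.40%, Irx at 3.92%, Dlx at 3.60%, Nkx at 3.42% and Six2, Six3 and Six6 together at 2.56%. With each gene counted once, Gata (7.32%) was above Tbx (6.54%) in young STD mice.

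In several long genes, highly methylated stretches lay far from a start with low methylation. In Pax2, which acts in the kidney and at the border of midbrain and hindbrain, the first kilobase had a level of 2.35% (38 CpGs), the kilobase at 16 kb 95.7% (6 CpGs) and the one at 62 kb 86.7% (5 CpGs). Near its end, at 80 kb, the level was again 0.923% (7 CpGs). Pax5, the factor of B cell identity, also had low and high kilobases, with 2.74% (41 CpGs) at 6 kb, 94.8% (5 CpGs) at 31 kb, 80.7% (7 CpGs) at 136 kb and 2.51% (12 CpGs) at 152 kb. Both Pax genes thus held an unmethylated stretch far from the first start site. The kilobases between were mixed in level. Pax2 had 7.27% (5 CpGs) at 52 kb and 29.0% (12 CpGs) at 69 kb. Pax5 had 47.0% (8 CpGs) at 112 kb and 47.6% (6 CpGs) at 149 kb. Lhx4, a factor of pituitary and motor neuron development, was at 2.82% (45 CpGs) at 13 kb and at 93.6% (15 CpGs) at 34 kb. Gata4, a heart and endoderm factor, was at 5.29% (25 CpGs) at 30 kb and at 93.1% (4 CpGs) at 40 kb. In Gata6, a relative with the same tissues, the body had 8 CpGs only, with a level of 87.4%, beside 2.27% (17 CpGs) in the first kilobase. Tbx4 was methylated on both sides, with 87.1% (3 CpGs) in the kilobase that starts 2 kb upstream, 2.81% (20 CpGs) at 8 kb and 89.7% (5 CpGs) at 12 kb.

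The body was highest in Gata6 (87.4%, 8 CpGs), Pax5 (52.4%, 78 CpGs), Lhx3 (45.9%, 2 CpGs), Pax8 (41.8%, 14 CpGs) and Tbx20 (38.9%, 2 CpGs). It was lowest in Pax1 (1.85%, 11 CpGs), a factor of the vertebral column, Dlx5 (2.21%, 15 CpGs), a factor of forebrain interneurons and bone, Six6 (2.87%, 41 CpGs), which acts in the eye and pituitary, Six2 (3.41%, 33 CpGs), which maintains nephron progenitors, and Lhx8 (3.59%, 9 CpGs), which specifies cholinergic neurons of the forebrain. As a plain mean over the covered CpGs of each mouse the Dlx5 body was at 3.73%, above Six6 (3.26%), Six2 (3.24%) and Lhx8 (3.63%) taken the same way. Several of the levels at both ends rest on few CpGs. In Pax8 the first kilobase was itself at 41.2% (7 CpGs), with 12.1% (3 CpGs) at 2 kb, 12.5% (4 CpGs) at 3 kb, 38.7% (2 CpGs) at 19 kb and 84.2% (5 CpGs) at 39 kb.

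The promoters with the highest levels were those of Pax8 (41.2%, 7 CpGs), Hand1 (19.4%, 14 CpGs), Tbx4 (17.1%, 29 CpGs), Tbx1 (11.5%, 52 CpGs) and Gata4 (11.5%, 29 CpGs). The highest of the other families were Nkx2-3 (4.85%), Lhx3 (7.38%), Dlx6 (6.95%), Six6 (3.89%) and Irx1 (6.57%). Within 500 bp of the start sites Nkx2-3 was at 1.78% and Dlx6 at 2.94%, and within 2 kb at 7.78% and 11.5%. Hand2, the close relative of Hand1 in the heart, had the lowest promoter of all, at 0.770%. In several genes the start sites differed in level. Otx2, needed for forebrain and midbrain, had 3.28% (30 CpGs) at its first start site and 16.6% (28 CpGs) at the one 10.9 kb downstream, from which the sequence at 33.5% above was taken. Irx1 had 2.52% (29 CpGs) at the first, 15.96% (12 CpGs) at 3.01 kb and 6.88% (16 CpGs) at 4.29 kb. Gata4 went the other way, with 25.3% (7 CpGs) at the first and 4.13% (21 CpGs) at 26.4 kb, and a single CpG at its last start site, at 58.1 kb, had 69.4%. Gata2, a factor of blood stem cells and midbrain neurons, had 2.27% at the first start site and 7.47%, 13.97% and 12.3% at the next ones.

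Of the 53 genes, 33 had another annotated gene that overlapped the span or lay within 2 kb, in many cases an antisense or divergent transcript such as Six3os1, Dlx6os1 or Otx2os1, so a CpG counted for a factor can lie in the promoter of its neighbour as well.

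Over all promoter CpGs of these genes, most values were at 0 and a few well above it. Of the 36753 promoter values, 87.5% were exactly 0, 1.49% were 100% and 11.0% lay between. The values above 0 had a median of 28.6%. Of the 2426 promoter CpGs, 860 (35.4%) were at 0 in every mouse with a value, 584 (24.1%) were above 0 in 1 mouse alone, and 59 (2.43%) were above 0 in more mice than they were at 0. The median CpG had values in 15 mice. In the bodies 76.5% of values were at 0 and 6.64% at 100%, and the values above 0 had a median of 43.5%. Among all other CpGs 53.4% of values were at 0 and 30.2% at 100%. Values above 0 came in runs. In the promoters, when a CpG was above 0 in a mouse, the next CpG within 30 bp on the same strand was above 0 in 32.2% of 2646 pairs, against 8.02% of 22274 pairs when the first was at 0. In the bodies these shares were 53.6% of 4433 pairs and 10.7% of 19634. CpGs this close can lie on the same reads, so the pairs are not independent.

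Per mouse, the mean promoter level over all 53 genes was 4.51% ± 0.650 (SD, n = 8) in young STD mice, with a lowest, median and highest value of 3.41%, 4.58% and 5.28%. It was 5.27% ± 0.743 (SD, n = 8) in aged STD mice, with 3.88%, 5.56% and 6.08%, and 4.62% ± 0.418 (SD, n = 8) in aged ENR mice, with 3.98%, 4.71% and 5.11%. The 3 groups overlapped. The order of the means depended on the CpGs used. With only the CpGs that all 24 mice covered, the promoter means were 3.98% in young STD, 3.77% in the aged STD and 3.52% in the enriched mice, and the body means 6.53%, 5.15% and 4.16%. Aged STD replicate 5 was the lowest of its group, and without it the aged STD mean was 5.46%. The body level was 12.6% ± 0.569 in the young STD group, 12.8% ± 0.837 in the aged STD group and 12.3% ± 0.589 in the aged ENR group (SD, n = 8 each), and again the groups overlapped. No test was run on these means. The dentate gyrus holds several cell types, and a change of their shares cannot be told apart from a change of methylation within them in such bulk samples.

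By family, the promoter mean was higher in aged STD than in young STD mice in 9 of 9 families when each CpG counted once, by 0.0848 points (Nkx) to 1.19 points (Pax). This direction depended on the weighting. With each gene counted once it was higher in 7 families and lower in Gata (-0.268 points) and in the others (-1.19 points). With only those CpGs that all 24 mice covered it was higher in 5 of the 8 families that had any, and lower in Dlx, Nkx and Tbx. Each of the first 9 differences was smaller than the larger SD of the 2 groups. By gene, Nkx had 2 tested promoters higher and 4 lower with age, the others 3 higher and 5 lower, and Pax 3 and 3. Aged ENR minus aged STD ran from -1.55 points (Gata, 6.18% against 4.63%) to 0.527 points (Nkx), and was below 0 in 8 of 9 families. With each gene counted once it was below 0 in 6, with Dlx (0.499 points) and the others (1.32 points) above 0. With only the CpGs that all 24 mice covered it ran from -4.61 points (Six2, Six3 and Six6) to 4.76 points (Irx). In Gata, aged STD replicate 5 had 2.75% and the other 7 aged STD mice 5.56% or more, and without that mouse the aged STD mean was 6.67%. With each CpG counted once, the body mean was higher with age in 6 families. It was lower in Lhx (-0.857 points), Pax (-0.613 points) and the others (-0.138 points). With each gene counted once, Gata turned lower (-0.655 points) and the others higher (0.254 points). With only the CpGs that all 24 mice covered, it was lower in all 5 families that had any. Without aged STD replicate 5 the aged STD mean of the others was 7.97%, above 7.63% in young STD mice. For Pax these means were 27.13% and 27.16%. With ENR and each CpG counted once, the body mean was lower in 6 families. It was higher in Six2, Six3 and Six6 (1.14 points), Nkx (0.538 points) and Pax (0.332 points). With each gene counted once Gata turned higher (2.225 points), and as a plain mean over the covered CpGs Pax turned lower (-1.68 points). With only the CpGs that all 24 mice covered, 2 of 5 families were lower, Nkx (-2.30 points) and Tbx (-13.6 points). Pax was then higher by 8.31 points. Over the CpGs that all 24 mice covered, Pax differed by -8.36 points with age. With each CpG counted once, the widest differences were those of Irx and Dlx. Irx had a young STD mean of 6.96% ± 1.94, an aged STD mean of 9.25% ± 2.26 and an aged ENR mean of 7.19% ± 1.73, and Dlx had 9.49% ± 2.63, 10.9% ± 3.44 and 7.78% ± 2.59 (SD, n = 8 each). The mice of the 3 groups overlapped in both.

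**Figure D3:**
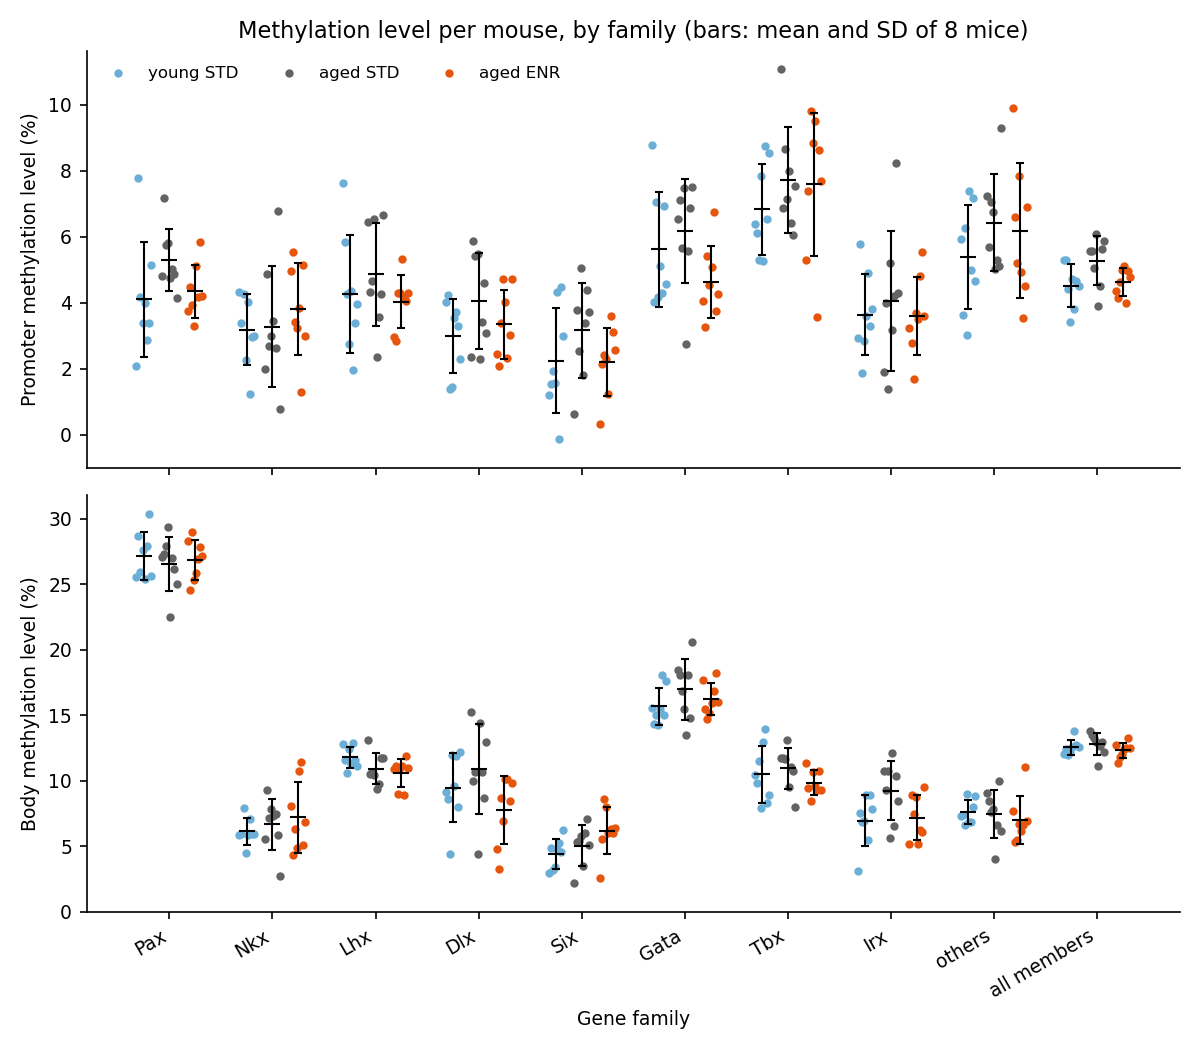
Methylation level per mouse (y axis, percent) of the CpGs of each family and of all 53 genes (x axis), promoters above and bodies below. Points are mice and bars the mean and SD of 8 mice. Over all genes the promoter means are 4.51%, 5.27% and 4.62%, and the 3 groups overlap in every family.

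The first comparison asked whether these regions differed with age. Differences are given in percentage points of methylation. They come from a limma fit to the region values of all 24 mice, with Benjamini-Hochberg adjustment over all 15123 promoters or 12501 bodies of the table. A region value is the level of the region plus the mean deviation of the CpGs covered in that mouse, so it can fall below 0 or rise above 100%. Of the 51 promoters, 0 passed an adjusted p of 0.05 (background over all promoters 0.00661%), and the smallest adjusted p was 0.873. At an unadjusted p under 0.05 there were 3 (background 5.38%). The median difference was 0.42 points, with 29 promoters higher and 22 lower in aged STD mice, against -0.01 points over all promoters, and the median standard error was 1.58 points. Of the 49 bodies, 0 passed (background 0%), also at an unadjusted p under 0.05 (background 6.05%). Their median difference was 0.02 points, with 25 higher and 24 lower, against -0.45 points over all bodies.

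The 3 promoters with an unadjusted p under 0.05 were those of Tbx20, Pax5 and Pax1. Tbx20 (chr9:24718138-24774303, minus strand), a T-box factor of the heart, had a promoter methylation of -3.44% to 7.65% (median -0.32%) in young STD and of 1.56% to 15.5% (median 5.28%) in aged STD mice. All 8 aged mice lay above the young median, yet the groups overlapped. The difference was 5.07 points (SE 1.77, adjusted p = 0.873, exact two-sided permutation p = 0.0191). The highest value came from aged STD replicate 8, far above the other aged mice. With the promoter taken as 500 bp around the start sites the difference was 1.14 points. Pax5 (chr4:44524757-44710487, minus strand) had 1.20% to 5.42% (median 3.20%) in young STD and 1.81% to 12.9% (median 6.56%) in aged STD mice, a difference of 3.80 points (SE 1.58, adjusted p = 0.873, exact two-sided permutation p = 0.0205). The lowest aged mice were inside the young range, and within 500 bp of the start sites the difference was 1.04 points. Pax1 (chr2:147361925-147393295, plus strand) had -0.57% to 10.02% (median 3.56%) in young STD and 2.80% to 10.5% (median 6.51%) in aged STD mice, a difference of 2.92 points (SE 1.32, adjusted p = 0.873, exact two-sided permutation p = 0.0628). Its highest young mouse lay close to the highest aged mouse, and within 500 bp the difference was 1.32 points.

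The paralogs Barhl1 and Barhl2, homeobox genes of the cerebellum, retina and spinal cord, came next. Barhl1 had a promoter methylation of 1.92% to 12.6% (median 6.72%) in young STD and 7.83% to 21.5% (median 9.33%) in aged STD mice. The difference was 4.15 points (SE 2.04, exact two-sided permutation p = 0.0738). Barhl2 had 0.373% to 7.69% (median 1.32%) and 1.10% to 9.87% (median 3.87%), a difference of 2.24 points (SE 1.13, exact two-sided permutation p = 0.101). Within 500 bp the Barhl2 difference was 3.54 points. The aged ENR means lay between the other groups in both genes. Both were picked for their difference with age, and the ENR difference uses the same aged STD mice. This order can therefore follow from the pick alone. For Barhl1 the means were 7.66%, 11.8% and 9.13% in the young STD, aged STD and aged ENR groups, with an ENR difference of -2.68 points. For Barhl2 they were 2.45%, 4.69% and 3.11%, with an ENR difference of -1.58 points, and neither passed the test (adjusted p = 0.928 and 0.927). The Barhl1 promoter carries 11 measured CpG sites in the following 120 bp (chr2:28912046-28912165, an intron, mean level 8.80%, single CpGs 0.397% to 27.2%), printed 5′ to 3′ on the gene's strand with the measured CpGs in capitals.
Barhl1 promoter: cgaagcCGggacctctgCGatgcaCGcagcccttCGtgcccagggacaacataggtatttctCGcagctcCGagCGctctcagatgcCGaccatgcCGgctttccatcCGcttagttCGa

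The Hand1 promoter had the widest difference with age in points, with a wide spread. It was at 7.83% to 53.7% (median 16.9%) in the 7 young STD mice with enough CpGs, 0.0984% to 19.4% (median 9.32%) in 6 aged STD mice and 2.79% to 43.2% (median 23.2%) in 8 aged ENR mice. The aged minus young difference was -14.55 points with a standard error of 7.63 (adjusted p = 0.873). The Tbx4 promoter, which differed by 0.76 points with age, ranged from -15.4% to 52.8% among the aged STD mice alone, with a median of 18.6%, while the median was 15.8% among young STD mice and 16.2% among enriched ones. These intermediate promoters varied more between mice of a group than between groups.

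Among the bodies, Six6 had the smallest p with age. It had 0.136% to 4.13% (median 1.51%) in young STD and 1.66% to 5.39% (median 3.93%) in aged STD mice, and the difference was 1.98 points (SE 1.02, adjusted p = 0.843, exact two-sided permutation p = 0.0120). The groups overlapped, with all 8 aged mice above the young median. The next bodies were Nkx6-1, a factor of motor neurons and pancreatic beta cells (3.39 points, SE 2.14), Barhl1 (-3.11 points, SE 1.97), Pax5 (-3.50 points, SE 2.28) and Tbx4 (3.11 points, SE 2.05). Their exact two-sided permutation p-values were 0.159 to 0.195. Without aged STD replicate 1 the Nkx6-1 difference was 1.55 points. The Pax5 difference was -2.18 points without aged STD replicate 5, the mouse that stood apart, and -2.33 points without young STD replicate 7. In Barhl1 and Pax5 promoter and body differed in opposite directions, neither past the test.

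The second comparison asked whether 3 months of enrichment went with a difference between mice of the same age. It uses the same aged STD mice as the first, and they enter the 2 comparisons with opposite sign. Of the 51 promoters, 0 passed an adjusted p of 0.05 (background 0.0132%, smallest adjusted p 0.927), and 4 had an unadjusted p under 0.05 (background 4.69%). The median difference was -0.46 points, with 19 higher and 32 lower in aged ENR mice, against -0.18 points over all promoters. Of the 49 bodies, 0 passed (background 0%, smallest adjusted p 0.960) and 1 had an unadjusted p under 0.05 (background 5.02%). The median body difference was -0.13 points, against -0.33 over all bodies.

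Tbx3, a T-box factor of limb, mammary gland and heart, had the smallest p. Its promoter (gene at chr5:119670669-119684724, plus strand) had 2.67% to 9.37% (median 5.73%) in aged STD and -0.57% to 4.35% (median 1.35%) in aged ENR mice, beside 0.0935% to 7.95% (median 4.37%) in young STD mice. All 8 enriched mice lay below the aged STD median, with overlap between the highest of them and the lowest aged STD mice. The difference was -4.13 points (SE 1.25, adjusted p = 0.927, exact two-sided permutation p = 0.00404). Gata3 (chr2:9857078-9890034, minus strand), a T cell and sympathetic neuron factor, had 0.648% to 9.36% (median 5.51%) in aged STD and -0.49% to 6.06% (median 1.32%) in aged ENR mice, a difference of -3.23 points (SE 1.18, adjusted p = 0.927, exact two-sided permutation p = 0.0241). In 7 of 8 enriched mice it lay below the aged STD median. Within 500 bp of the start sites the Tbx3 difference was -2.15 points. The sequences below show a stretch of each, 120 bp on the gene's strand, 5′ to 3′, with the measured CpGs in capitals.
Tbx3 promoter, chr5:119670449-119670568, mean level 4.03%: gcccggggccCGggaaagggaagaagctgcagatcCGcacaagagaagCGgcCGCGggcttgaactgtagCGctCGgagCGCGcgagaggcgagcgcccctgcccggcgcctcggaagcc
Gata3 promoter, in an intron, chr2:9879124-9879243, mean level 2.10%: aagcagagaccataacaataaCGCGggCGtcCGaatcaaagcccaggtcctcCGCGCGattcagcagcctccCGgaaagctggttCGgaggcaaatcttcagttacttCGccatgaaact

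Irx5 (chr8:92357625-92376286, plus strand), an Iroquois factor of heart and retina, was listed for promoter and body. Its promoter had 0.764% to 8.42% (median 4.13%) in aged STD and -0.38% to 4.29% (median 1.23%) in aged ENR mice, a difference of -2.82 points (SE 1.12, adjusted p = 0.927, exact two-sided permutation p = 0.0232). Its body had 6.71% to 12.2% (median 11.1%) and 4.30% to 12.1% (median 6.68%), a difference of -2.97 points (SE 1.42, adjusted p = 0.960, exact two-sided permutation p = 0.0277). In both regions the enriched mice overlapped with the aged STD mice.

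Tbx1 (chr16:18580979-18590671, minus strand), which patterns the pharyngeal arches, went the other way. Its promoter had 7.47% to 13.3% (median 9.74%) in aged STD and 4.53% to 21.9% (median 15.8%) in aged ENR mice, a difference of 4.77 points (SE 2.16, adjusted p = 0.927, exact two-sided permutation p = 0.0632). The lowest and the highest mouse of these groups were both enriched, and within 2 kb the difference was 3.05 points. Six3, a forebrain and eye factor, had 0.401% to 5.66% (median 3.61%) and -0.03% to 2.71% (median 1.42%), a difference of -1.62 points (SE 0.809, exact two-sided permutation p = 0.0592). With the promoter taken as 2 kb around the start sites the Six3 difference was 0.56 points and with 500 bp -4.02 points, so its direction hangs on that choice. The next bodies were Six2 (2.87 points), Dlx3, a factor of placenta and skin (-6.35 points, SE 3.89), Tbx4 (-3.27 points) and Lhx2, a factor of cortex and hippocampus (-2.77 points), with exact two-sided permutation p-values of 0.0530 to 0.243. Without aged STD replicate 8 the Dlx3 difference was -3.44 points and the Lhx2 difference -0.92 points. As a plain mean over the CpGs of each mouse, the Tbx4 difference was -1.71 points.

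**Figure D4:**
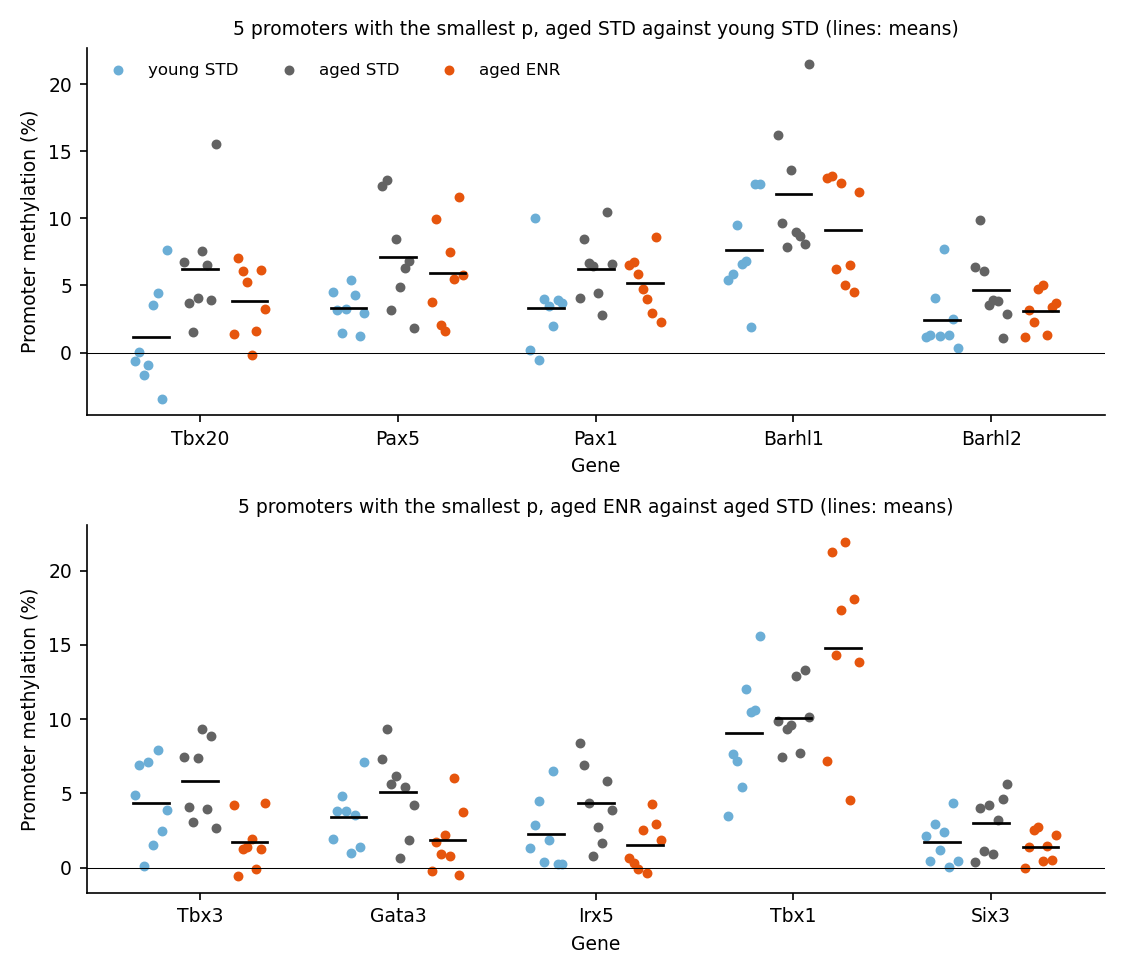
Promoter methylation per mouse (y axis, percent) of the 5 promoters with the smallest p for aging (top) and for ENR (bottom) in the 3 groups. Points are mice and lines the group means. For Tbx20 the aged STD mice lie at 1.56% to 15.5%, for Tbx3 the aged ENR mice lie at -0.57% to 4.35%, and the groups overlap in each gene.

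Aged ENR mice were also compared with young STD mice. Of the 51 promoters, 0 passed an adjusted p of 0.05 (background 0.0132%) and 3 had an unadjusted p under 0.05 (background 4.89%). These were Tbx1 (5.76 points), Tbx3 (-2.63 points) and Tbx5, a factor of heart and forelimb (-4.46 points), each with an adjusted p of 0.921. Of the 49 bodies, 0 passed at either threshold (background 0% adjusted and 6.25% unadjusted).

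**Figure D5:**
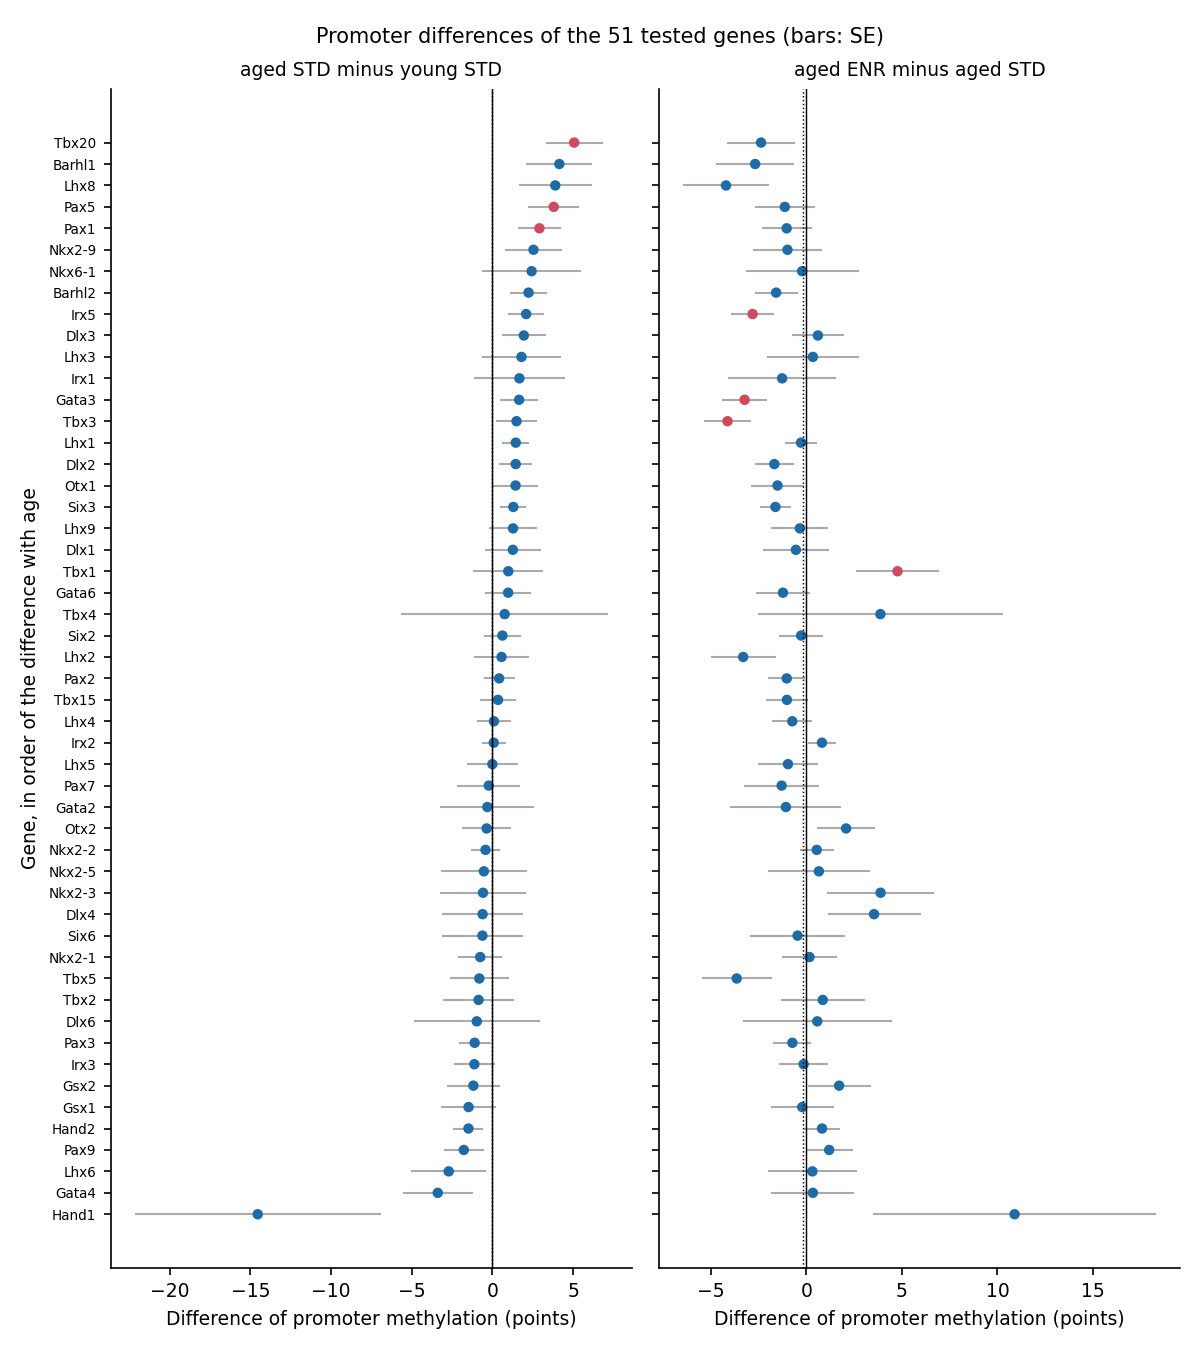
Promoter differences (x axis, percentage points) of the 51 tested genes for aged STD minus young STD (left) and aged ENR minus aged STD (right), both in the order of the difference with age. Bars are standard errors, red points have an unadjusted p under 0.05 and dotted lines mark the median of all promoters. Both panels use the same aged STD mice, and no difference passed the adjusted test.

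The other gene lists gave the same counts of calls, with 0 promoters and 0 bodies past the adjusted test in either comparison. At an unadjusted p under 0.05, aging gave 5 and ENR 3 of 36 Hox promoters, 2 and 2 of 25 promoters of the relatives outside the list, and 2 and 1 of 10 promoters of the forebrain and granule neuron factors, beside 5.38% and 4.69% of all promoters. Among bodies the counts were 3 and 4 of 33 for Hox, 1 and 0 of 23 for the relatives and 3 and 1 of 11 for the forebrain factors, beside 6.05% and 5.02% of all bodies.

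Single CpGs were examined last. A CpG was called when limma gave an adjusted p under 0.05 over all 694379 CpGs and the group means differed by over 25 points. Of the 5049 CpGs of these genes, 0 were called with age (background 0.00475%), with ENR (background 0.00432%) or between aged ENR and young STD mice (background 0.00504%). At an unadjusted p under 0.05 there were 91 with age (background 2.23%), 94 with ENR (background 1.9%) and 105 between aged ENR and young STD mice (background 2.18%). By size alone, with no test, 172 CpGs were higher by over 25 points in aged STD than in young STD mice (background 4.15%) and 153 lower (background 5.01%). In aged ENR against aged STD mice 116 were higher (background 3.82%) and 162 lower (background 4.51%). The total was 6.44% of the CpGs of these genes for aging and 5.51% for ENR, beside 9.16% and 8.33% of all CpGs. Among promoter CpGs alone it was 4.91% and 4.04%, beside 4.47% and 3.92% of all CpGs within 1 kb of a start site, and among body CpGs 7.85% and 6.86%, beside 13.5% and 12.4% of all CpGs farther out. The share went with the level of the CpG. Among CpGs at 10% to 90%, 28.1% of the 1088 in these genes differed by over 25 points with age, against 29.5% of the other CpGs of that level, and for ENR the shares were 23.9% and 26.8%. At 2% to 10% the shares with age were 0.924% and 1.08%, and at 90% to 100% they were 3.80% (3 of 79 CpGs) and 0.842%. The level is the mean of the same group means, which limits how far a CpG near 0 or 100% can differ. With age the most CpGs over 25 points were in the bodies of Pax5 (15 of 78), Pax2 (13 of 91), Gata4 (12 of 107), Otx1 (12 of 88) and Irx5 (11 of 93).

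The CpGs with the smallest p rested on few mice. An intron CpG of Otx1, a forebrain factor (chr11:21997930, minus strand, 3685 bp from the nearest start site), had 0% in 3 of 5 young STD mice and 5.56% at most. It had 42.7%, 100% and 100% in the 3 aged STD mice with a value, and 0% in 3 of 4 aged ENR mice with 34.4% in the other. The aging difference was 79.0 points (SE 13.3, adjusted p = 0.633) and the ENR difference -72.3 points (adjusted p = 1). The 3 CpGs within 50 bp of it averaged 16.3%, 33.3% and 1.33% in the groups. An intron CpG of Pax9 (chr12:56700517, minus strand), a factor of tooth and thymus, was at 0.625% on average in 4 young STD mice, at 100% in all 3 aged STD mice with a value and at 26.3% in 5 aged ENR mice. Its 4 neighbours averaged 10.1%, 0% and 5.65%, so they did not share the pattern. A CpG of the Tbx20 promoter (chr9:24773486, plus strand, 798 bp from the nearest start site) was at 0% in all 5 young STD mice, at 22.2% to 100% in 4 aged STD mice and at 0% in 4 of 5 aged ENR mice. Of the 28 CpGs of that promoter it alone differed by over 25 points with age. Its 3 neighbours averaged 3.52%, 12.3% and 11.1% in the groups. A coding-exon CpG of Gsx2, a factor of ventral forebrain progenitors (chr5:75077090, plus strand), averaged 0.505% over 6 young STD mice, 42.6% over 4 aged STD mice and 0% over 6 enriched mice. The 3 neighbours of the Gsx2 CpG averaged 0.337%, 9.58% and 3.97%. Adjusted p was 1 for the last 3 of these CpGs in both comparisons. The sequences around the first 3 are printed on the plus strand, with the CpG in capitals.
Otx1 intron, chr11:21997909-21997950: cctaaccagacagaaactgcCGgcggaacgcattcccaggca
Pax9 intron, chr12:56700496-56700537: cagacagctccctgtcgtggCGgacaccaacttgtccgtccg
Tbx20 promoter, chr9:24773466-24773507: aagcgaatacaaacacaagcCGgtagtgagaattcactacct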

How the data were processed

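RRBS libraries of 24 dentate gyri were read as 75 bp single-end reads. The authors used Trim Galore with cutadapt 1.8.1 for trimming, Bismark for alignment to mm10, and methylKit 1.5.2 for the methylation calls (names and versions per the submitters' processing notes; the sources differ on the versions of Trim Galore and Bismark, which are left out). The deposited table gives the percent methylation of each cytosine and mouse. The authors kept cytosines with at least 10 reads and a coverage up to the 99.9th percentile, in at least 3 mice per group, with the strands separate. Read numbers are not in the table, so no counting interval can be given, and a read-level test was not run. All value columns were used. The cytosines of the 53 genes lay on a CG of GRCm38 in 5049 of 5049 cases.

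A region value per mouse is the mean level of the region's CpGs plus the mean deviation of those covered in that mouse, which needed 3 covered CpGs. Group means of the 3 groups were fitted in 1 model in limma 3.58.1 (R 4.3.3, two-sided, Benjamini-Hochberg over all regions or CpGs of the table). Single values were checked with an exact two-sided permutation test over 12870 splits of 8 against 8 mice (smallest possible p 0.0001554), unadjusted, for the 20 named region differences. On simulated data, limma called 34 of 100 promoters changed by 5 points, 64 of 100 changed by 10 points and 3 of 14923 unchanged ones in the aging comparison. Tables were handled with pandas 2.3.3.

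The genes and the comparison lists were chosen with earlier results of these data known. Named were regions past the test, the 5 promoters and 5 bodies with the smallest p per comparison, the 5 highest promoters and bodies, the 5 lowest bodies, the highest promoter of each family, and the 3 CpGs with the smallest p per comparison. Other genes and stretches in the text were named after their values were seen. Labels do not say that equal replicate numbers mark related mice. Alternatives covered the promoter width, CpG and mouse minimums, an arcsine scale, a replicate block, the size threshold and leaving out each mouse.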

Additional observations from a re-analysis of the deposited data

Results flagged for a closer look

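In 157 groups of mice tested, over families and named regions, 16 single values lay far from the rest of their group, by Dixon's criterion at 95%, which chance passes in about 1 in 20 groups. They are given as values only. Among the levels per mouse, aged STD replicate 5 had a Gata promoter level of 2.75% (the nearest mouse 5.56%), aged ENR replicate 7 had a body level of 11.1% over the Otx, Gsx, Barhl and Hand genes (nearest 7.71%), and young STD replicate 6 had a body level of 13.8% over all 53 genes.

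Among promoters, the high values were 15.5% for Tbx20 in aged STD replicate 8, 10.02% for Pax1 in young STD replicate 2, 15.4% for Nkx2-3 in aged STD replicate 2 and 21.7% in aged ENR replicate 7, 22.6% for Lhx3 in aged STD replicate 4 and 24.9% for Irx1 in aged STD replicate 7. Among bodies, Irx5 had a low value of 3.62% in young STD replicate 1. The high values were 36.6% for Dlx3 in young STD replicate 6, 5.69% for Pax1 in young STD replicate 2 and 10.8% in aged STD replicate 1, 27.7% for Dlx5 in young STD replicate 8 and 16.7% in aged STD replicate 1, and 22.2% for Lhx8 in young STD replicate 6.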

How the results depend on the processing

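The count of promoters and bodies past the adjusted test stayed at 0 in all 48 alternatives and in all 144 fits that left out 1 mouse. The count of single CpGs called stayed at 0 in 72 such fits. With a replicate block it was 1 for aging and 1 for ENR, the same CpG of the Irx5 body (chr8:92360252, minus strand), with means of 0% over 6 young STD mice, 65.5% over 3 aged STD mice and 3.75% over 5 enriched mice. Over all CpGs the block gave 506 calls for aging and 443 for ENR, against 33 and 30 without it. Equal numbers did not pair the mice. The 24 correlations of mice with the same number ran from -0.0724 to 0.0770, and 6 of 24 mice correlated best with their own number. CpGs over 25 points numbered 325 for aging and 278 for ENR. Over 15 points there were 905 and 819, over 35 points 100 and 97, with at least 5 mice per group 56 and 45, and without 1 mouse 295 to 337 and 235 to 310. Of the named differences, Six3 reversed for ENR with promoters within 2 kb (0.56 against -1.62 points), and the other 179 alternatives and all 480 leave-outs kept direction and side of the threshold, though not always size, as given beside each difference that moved by over 1.5 times. Levels over all 53 genes moved by more than 1 SD as follows. With CpGs that all 24 mice had, the promoter was at 3.77% (aged STD) and 3.52% (aged ENR), beside 3.98% in young STD mice, which moved by less, and the body at 6.53% (young STD), 5.15% (aged STD) and 4.16% (aged ENR), so aged STD was below young STD in both (differences of -0.213 and -1.38 points, against 0.757 and 0.259). The aged ENR promoter was at 5.15% with each gene counted once and its body at 11.6% as a plain mean. Of the levels of single families, 36 of these values moved by more than 1 SD and 111 did not. The cause was not tested. Without aged STD replicate 5 the aged STD levels were 5.46% and 13.1%.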
